A study of Mus musculus with 4 samples.

Results

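The cells described here are astrocytes with a high level of Gfap mRNA, sorted from the forebrain of mice at postnatal day 5. They were chosen by their own counts: a cell had at least 3 Gfap UMIs (unique molecular identifiers, each standing for 1 captured mRNA molecule) and at least 5 UMIs of the astrocyte genes Aldh1l1, Aqp4 and Gja1 together. It also had no UMI of the division genes Mki67 and Top2a, of the interneuron factors Dlx1 and Dlx2, of Pdgfra, which marks oligodendrocyte progenitors, or of the ependymal genes Tmem212 and Ccdc153. Of 17623 cells with 2000 to 40000 UMIs, at least 1000 detected genes and at most 10% mitochondrial UMIs, 944 met this rule, which is 5.36%. Control replicates 1 and 2 held 332 and 141 of them, and mutant replicates 1 and 2 held 293 and 178.

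Both genotypes were C57BL/6 mice (the J substrain in the study's methods) that carried NestinCreERT2, a tamoxifen-inducible Cre recombinase driven in neural progenitors, and a tdTomato reporter. Control mice were Chd8+/+ and mutant mice Chd8+/F, so that Cre removed 1 copy of Chd8, a chromatin remodeler, in the cells in which it acted. All dams received tamoxifen in midgestation, and only tdTomato-positive cells were sorted. Each genotype had 2 libraries, each of pooled mice, so the spread of a library is not that of a single animal. After the filters on cells, control replicates 1 and 2 held 73584401 and 37355364 UMIs, and mutant replicates 1 and 2 held 71997602 and 41308866.

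The replicate number stood for more than a repeat. Both libraries of replicate 1 named Cell Ranger 7.0.0 in their headers and both of replicate 2 named 5.0.1. In the selected cells Xist, transcribed from the inactive X chromosome, was at 0.183 and 0 CPM (UMIs of a gene per 1000000 UMIs summed over the cells) in control and mutant replicate 1 and at 1510 and 1425 CPM in replicate 2. The Y-linked Ddx3y was at 75.6 and 67.6 CPM in replicate 1 and had no UMI in replicate 2. The reporting summary of the study states that its single-cell samples came from male mice, and the Xist and Ddx3y levels of replicate 2 go against that statement. Sex of the pooled mice, software version and replicate number therefore cannot be told apart. Levels in CPM are given per library, while most log2 differences come from a fit over all 4 libraries. Pairs of libraries shared between 2 and 15 cell barcodes, at most 0.303% of a library (9 barcodes, control replicates 1 and 2).

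Astrocytes feed and regulate neurons: they take up glutamate and GABA, buffer potassium and move water through Aqp4 at their end-feet. GFAP is an intermediate filament of astrocytes, abundant in white matter, beneath the pial surface and around the ventricles, and sparse in much of the grey matter of the cortex. During development cytokines of the interleukin-6 family, acting through the shared receptor chain gp130 (Il6st), JAK kinases and STAT3, and bone morphogenetic proteins (BMPs), acting through Smad factors and Id genes, are known to promote Gfap transcription and astrocyte differentiation.

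Gfap itself, on chr11:102887336-102900912 (minus strand, mm10), differed widely among the selected cells. The median cell held 9 and 8 Gfap UMIs in control replicates 1 and 2 and 7 and 12 in mutant replicates 1 and 2, and the highest cells held 200, 188, 172 and 190. The 33, 14, 29 and 18 cells richest in Gfap carried 43.0%, 48.8%, 45.6% and 42.9% of all Gfap UMIs of the selected cells. Summed over the cells of a library, Gfap was at 1024, 1282, 1022 and 1683 CPM (control replicates 1 and 2, then mutant replicates 1 and 2, the order kept below). Resting astrocytes with 1 or 2 Gfap UMIs, just outside the threshold, numbered 202, 102, 192 and 102 and held 93.9, 106, 100 and 92.7 CPM, while 45, 23, 46 and 19 cells lay just inside it with exactly 3 UMIs. Dividing astrocyte progenitors were at 81.6, 75.9, 80.1 and 148 CPM and ependymal cells at 29.2, 40.7, 24.3 and 69.8 CPM. Inhibitory neurons, in which a Gfap UMI may come from free RNA, were at 1.44, 6.88, 1.59 and 18.7 CPM.

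The labels called the sorted cells neuronal, but the selected cells carried astrocyte genes. Slc1a3, the glial glutamate transporter GLAST, was at 3749, 3515, 3992 and 2812 CPM, and Sox9, a gliogenic transcription factor, at 541, 535, 634 and 593 CPM. Of the genes that gave these cells their name, Serpinf1, which encodes the secreted serpin PEDF and lies on chr11:75409769-75422701 (minus strand), was at 269, 358, 212 and 569 CPM against 31.9, 84.2, 26.8 and 170 CPM in resting astrocytes with no Gfap UMI. Agt, the angiotensin precursor, on chr8:124556534-124569706 (minus strand), was at 96.9, 109, 94.2 and 209 CPM against 41.1, 57.0, 23.7 and 67.3 CPM. Cebpd, a transcription factor of the C/EBP family on chr16:15887286-15891031 (plus strand), was at 377, 330, 324 and 303 CPM against 50.5, 35.9, 42.4 and 45.8 CPM. All 3 genes were higher in the Gfap-high cells of every library, which is a description only, since they were named from earlier results of these data.

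At 5000 UMIs per cell, Serpinf1 and Agt were each detected in a minority of the Gfap-high cells of every library. After every cell was thinned to 5000 UMIs, Serpinf1 was detected in 37.8%, 39.1%, 33.6% and 47.6% of the Gfap-high cells and in 6.18%, 12.3%, 5.84% and 15.3% of Gfap-negative astrocytes. In inhibitory neurons, the background, the shares were 0.289%, 2.63%, 0.154% and 1.41%, from cells of lower depth (median 7435, 5599, 7115 and 6394 UMIs against 15742, 14077, 15504 and 15127). Without thinning Serpinf1 was detected in 44.9%, 45.4%, 40.6% and 58.4% of the Gfap-high cells. Agt was detected in 14.8%, 17.4%, 19.2% and 22.9% of the thinned Gfap-high cells, in 9.81%, 10.4%, 8.76% and 10.2% of Gfap-negative astrocytes and in 0%, 1.32%, 0% and 0% of inhibitory neurons. Its contrast between the astrocyte states was thus smaller than that of Serpinf1. Without thinning it was detected in 25%, 24.8%, 30.7% and 36.5% of the Gfap-high cells. Among cells with Serpinf1, Agt was found in 8.0%, 11.1%, 18.4% and 11.1%, and among cells without it in 18.9%, 21.4%, 19.6% and 33.7%. The share with Agt was lower beside Serpinf1 in each library, by little in mutant replicate 1, and 10, 6, 18 and 9 cells held both. Among the 23, 8, 22 and 11 cells with Myoc, the myocilin gene described below, Agt was found in 34.8%, 50%, 45.5% and 45.5%, and among the others in 13.3%, 15.4%, 17.0% and 21.4%. No test was run on these shares.

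For Gfap, Agt and Socs3, the last an inhibitor that STAT3 itself induces, the promoter is shown because STAT dimers bind the palindrome TTCNNNGAA and each of the 3 windows holds it. The sequences are from RefSeq (GRCm38.p6), run 5′ to 3′ on the strand of the gene from 250 bases before to 50 bases after its start, and have the palindrome in capitals. The start is that of RefSeq: for Agt it is the end of the gene span given above, while for Gfap and Socs3 (chr11:117966079-117970047 in GENCODE, minus strand) it lies inside the longer GENCODE span. The windows are chr11:102897151-102897450 for Gfap, chr8:124569657-124569956 for Agt and chr11:117969317-117969616 for Socs3, all on the minus strand.
Gfap: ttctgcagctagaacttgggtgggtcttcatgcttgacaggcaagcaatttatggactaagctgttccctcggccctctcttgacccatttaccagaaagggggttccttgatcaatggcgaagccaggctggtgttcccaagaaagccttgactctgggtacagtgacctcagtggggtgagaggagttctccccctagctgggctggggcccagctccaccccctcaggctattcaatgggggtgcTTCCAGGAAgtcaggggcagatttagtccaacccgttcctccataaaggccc
Agt: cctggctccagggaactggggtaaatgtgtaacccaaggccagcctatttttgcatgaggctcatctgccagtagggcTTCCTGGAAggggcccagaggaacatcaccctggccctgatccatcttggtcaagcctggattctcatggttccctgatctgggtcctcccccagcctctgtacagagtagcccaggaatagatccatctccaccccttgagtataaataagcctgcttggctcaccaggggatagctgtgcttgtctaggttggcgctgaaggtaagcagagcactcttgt
Socs3: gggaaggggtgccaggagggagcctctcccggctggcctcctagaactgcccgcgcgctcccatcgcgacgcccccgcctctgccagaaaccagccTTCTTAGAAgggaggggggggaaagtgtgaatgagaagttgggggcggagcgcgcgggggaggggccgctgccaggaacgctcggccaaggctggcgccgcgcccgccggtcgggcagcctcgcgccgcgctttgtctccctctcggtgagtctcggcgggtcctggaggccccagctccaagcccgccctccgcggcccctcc
The match began 2 bases before the listed start in Gfap, 172 bases before it in Agt and 154 bases before it in Socs3, and each window held 1 match. TTCNNNGAA reads the same on both strands, and 8.30% of 32851 mouse promoter windows of this length hold it, or 9.55% of 27025 gene symbols in at least 1 window. Of Gfap, Agt and the 15 genes named below as higher in Gfap-high cells, 13 had a window in this table and 3 of them held the palindrome. A match is a description of the letters and not of binding.

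Sorting resting astrocytes by their number of Gfap UMIs separated genes that changed over most steps from genes that were high mainly in the cells richest in Gfap. Hopx, a homeodomain-only protein of radial glia and astrocytes, was at 92.2, 278, 431, 625 and 807 CPM in control replicate 1 at 0, 1 to 2, 3 to 5, 6 to 11 and 12 or more Gfap UMIs. In mutant replicate 2 it went through 101, 171, 264, 406 and 703 CPM over the same steps, and in control replicate 2 it dipped from 307 to 267 CPM between the third and the fourth class. Myoc, the gene of the secreted glycoprotein myocilin, behaved otherwise: its level was at most 5.76 CPM in every class up to 11 Gfap UMIs and 213, 100, 264 and 96.0 CPM in cells with 12 or more. Agt also stood out in the top class, at 165, 230, 178 and 350 CPM, against 45.1, 57.6, 40.8 and 48.8 CPM in cells with 6 to 11. Slc6a11, the GABA transporter GAT-3, ran the other way, from 748, 792, 743 and 800 CPM at 0 Gfap UMIs to 193, 170, 209 and 264 CPM in the top class. The top class was also deeper than the Gfap-negative cells (median 17328, 14109, 16027 and 15688 UMIs against 13521, 11979, 12779 and 11624).

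**Figure D1:**
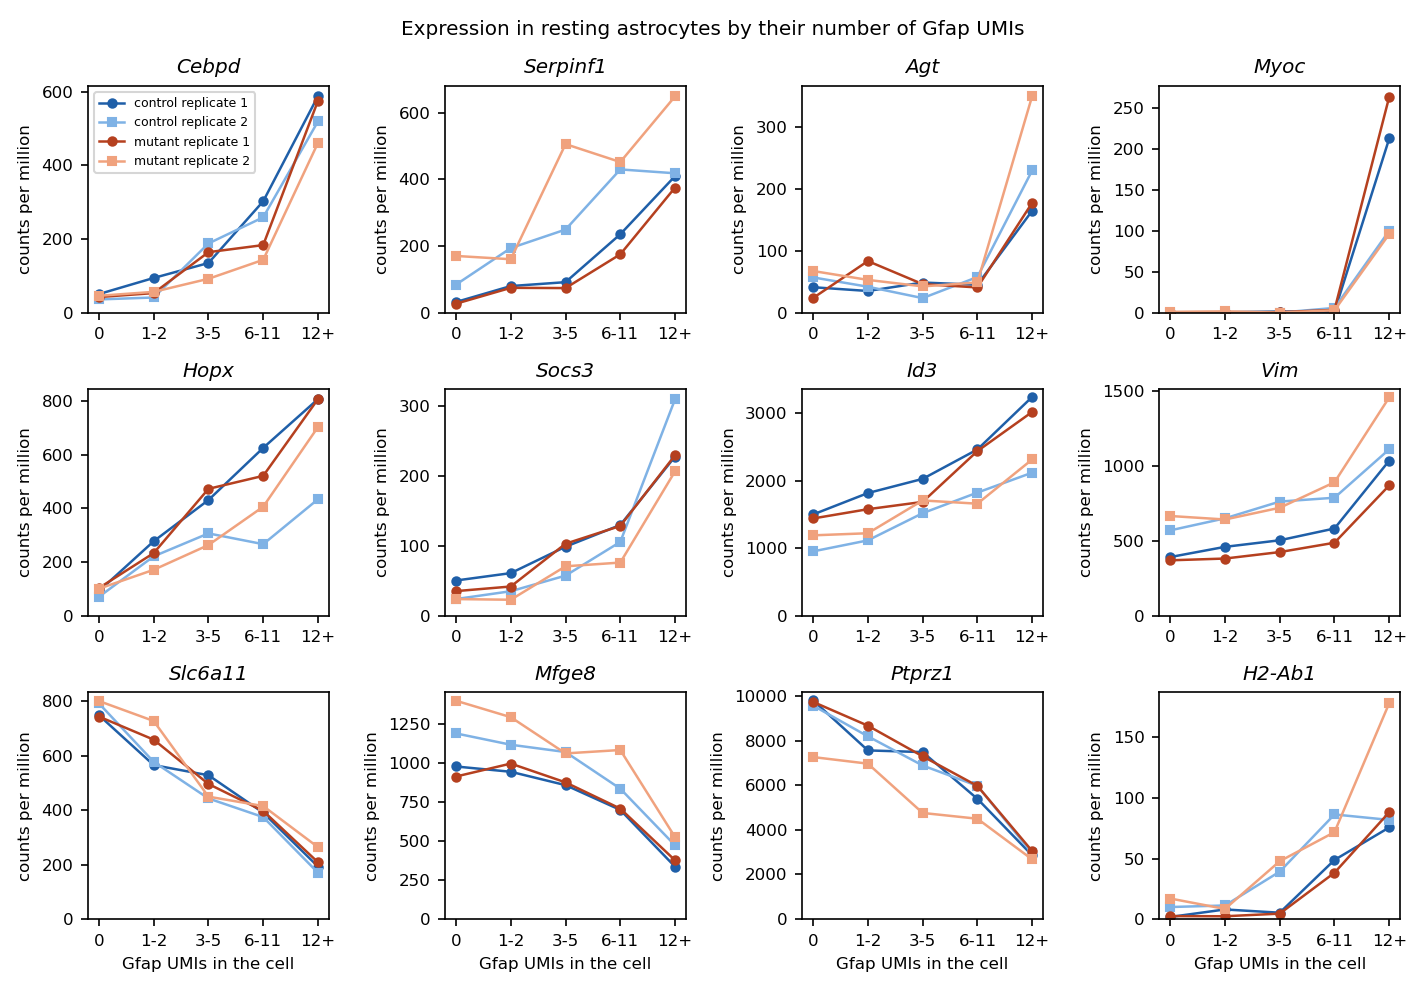
Each panel plots 1 gene in CPM (y axis, linear, from 0) over resting astrocytes grouped by their number of Gfap UMIs (x axis), with a line for each of the 4 libraries. Cebpd, Hopx, Socs3 and Id3 climb over most steps, Myoc and Agt climb at 12 or more Gfap UMIs, and Slc6a11, Mfge8 and Ptprz1 are lower in the last class than in the first in all 4 libraries.

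The next question was which genes outside the selection rule differed between Gfap-high and Gfap-negative resting astrocytes of the same library. Both sets followed the same rule but for Gfap, and 1536 Gfap-negative cells (480, 329, 463 and 264) were compared with the 944. A call here says that a gene went together with Gfap across cells. Of 12630 genes tested on summed counts with edgeR's quasi-likelihood test, 1363 were higher in Gfap-high cells (10.8% of those tested) and 1383 lower (11%), together 21.7%, at a Benjamini-Hochberg adjusted p under 0.05. Without the library as a block the count was 149 higher and 43 lower. Within replicate 1 alone it was 1101 higher and 738 lower, and within replicate 2 alone 758 and 451.

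The 15 genes named for the largest increases came from several families. Myoc (chr1:162639155-162649693, plus strand) had 496, 80, 474 and 142 UMIs in Gfap-high cells and 1, 0, 3 and 3 in Gfap-negative cells, too few there for a fold change or p to be given. It was found in 29 of 332, 14 of 141, 34 of 293 and 15 of 178 Gfap-high cells, and the top 2 cells of a library carried between 33.5% and 75.4% of its UMIs. Myocilin mRNA was thus concentrated in a small minority of the cells in each library. Cidea, a lipid droplet protein, was at 77.4, 91.9, 51.6 and 111 CPM against 2.19, 7.52, 1.47 and 6.98 CPM (log2 difference 4.21 ± 0.16 SE, adjusted p = 9.7e-13). H2-Ab1, a chain of the class II major histocompatibility complex (MHC), was at 48.1, 67.1, 44.4 and 124 CPM against 1.76, 9.94, 2.45 and 17.0 CPM (log2 difference 3.37 ± 0.19, adjusted p = 1.5e-10). Hopx was at 648, 344, 610 and 536 CPM against 92.2, 70.8, 104 and 101 CPM (log2 difference 2.55 ± 0.07, adjusted p = 7.0e-15). In each of these genes every Gfap-high value lay above every Gfap-negative value.

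The other genes of this group included receptors, chaperones and membrane proteins. Nrp2, a receptor for semaphorins and VEGF, was higher by 2.97 ± 0.09 on the log2 scale, and Hspb8, a small heat shock protein, by 2.66 ± 0.11. Disp3, a sterol-sensing membrane protein, was higher by 2.43 ± 0.11 and Cadps, which primes vesicles for secretion, by 2.36 ± 0.07. Ecrg4, a secreted peptide precursor, differed most between libraries: its mean log2 ratio, with 1 CPM added to each level, was 2.33 ± 1.06 (SD, n = 4), from 84.5 against 5.16 CPM in mutant replicate 2 to 97.2 against 38.4 CPM in mutant replicate 1. Gadd45g, a stress and differentiation gene, was higher by 2.21 ± 0.10, Fbxo2, a ubiquitin ligase subunit for glycoproteins, by 2.19 ± 0.07, and Fxyd6, a regulator of the sodium pump, by 2.18 ± 0.08. Passing the test in edgeR with 1 sign in 4 of 4 libraries was the condition for being named.

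The 10 genes named for the largest decreases included receptors and a transporter. Gabbr2, a subunit of the GABA-B receptor, was at 63.1, 60.3, 61.9 and 39.0 CPM against 240, 175, 239 and 114 CPM (log2 difference -1.78 ± 0.07, adjusted p = 3.9e-12). Grm5, the metabotropic glutamate receptor of young astrocytes, was at 476, 212, 406 and 180 CPM against 1125, 440, 1192 and 447 CPM (log2 difference -1.29 ± 0.06, adjusted p = 2.2e-11). Slc6a11 was at 345, 323, 363 and 341 CPM against 748, 792, 743 and 800 CPM (log2 difference -1.14 ± 0.05, adjusted p = 5.6e-12). Igfbp2, a secreted binder of insulin-like growth factors, was lower by 1.37 on the log2 scale and St6galnac5, a sialyltransferase, by 1.33. The others were Crym, Inka2, Prkcb, Sez6l and Luzp2, at log2 differences of -1.59, -1.53, -1.38, -1.36 and -1.17. For Slc6a11 and Gabbr2 the Gfap-high and Gfap-negative values did not overlap. Crym passed the test in the full comparison but not against Gfap-negative cells matched by UMI count, where its log2 difference was -0.66 (adjusted p = 0.062).

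**Figure D2:**
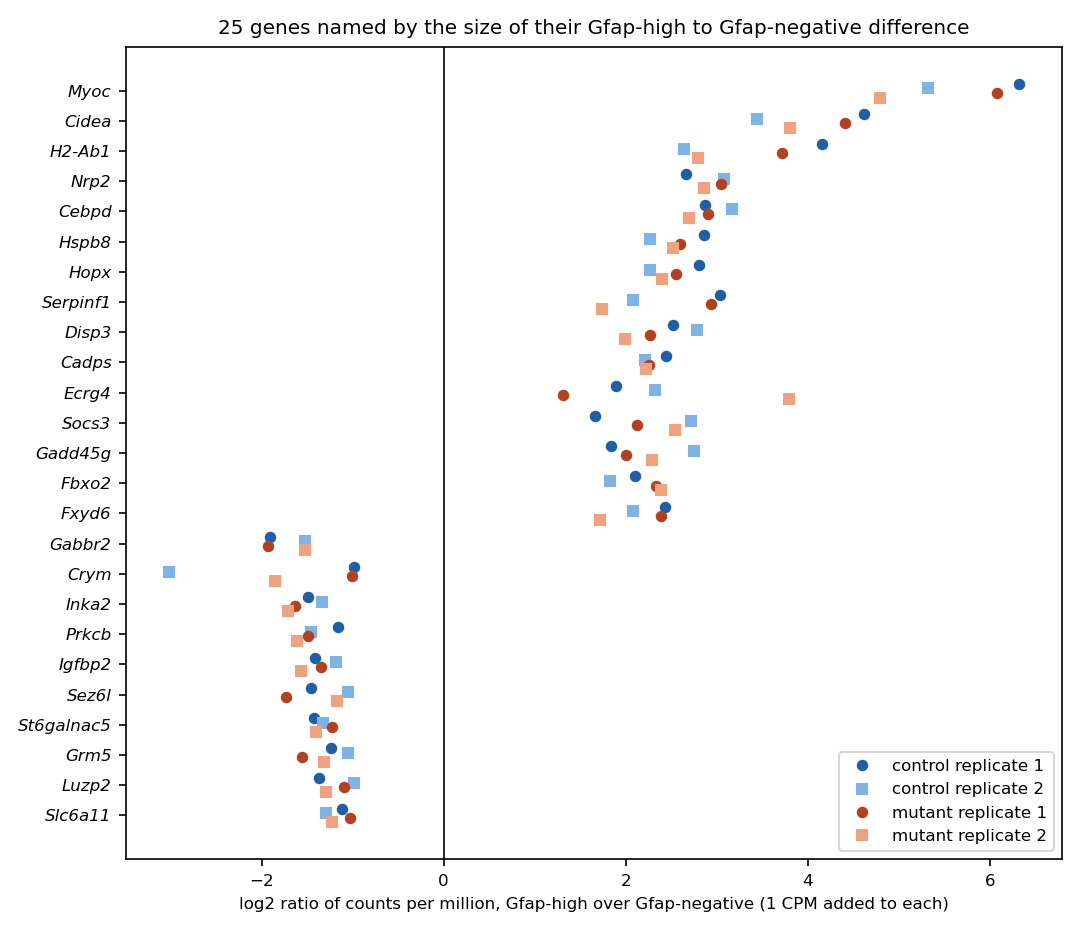
For each named gene (y axis) the log2 ratio of CPM between Gfap-high and Gfap-negative astrocytes (x axis, with 1 CPM added to each) is a point per library. All 15 genes at the top lie right of 0 and all 10 at the bottom left of 0 in each of the 4 libraries, as the rule for naming them required.

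Genes of the gp130 and JAK-STAT pathway were mostly higher. Leaving out Cebpd, which had served to name the cells, 9 of 13 members tested were higher, 1 was lower and 3 did not pass (median log2 difference 0.64), against 10.8% higher, 11% lower and a median of -0.03 over all genes tested. This list, chosen like the others with earlier results of these data known, shares Junb with the immediate early genes below. It also shares Osmr with the reactive astrocyte genes. Among the receptor chains Il6st (gp130) was at 185, 196, 163 and 184 CPM against 69.9, 78.3, 73.3 and 84.6 CPM (log2 difference 1.26 ± 0.06, adjusted p = 1.6e-11). Osmr, the oncostatin M receptor, and Lifr, the receptor for leukemia inhibitory factor, were higher by 1.71 ± 0.17 and 0.64 ± 0.06. Cntfr, the binding subunit for ciliary neurotrophic factor, went the other way, at 61.8, 37.4, 60.9 and 57.3 CPM against 94.7, 57.0, 82.6 and 68.0 CPM. Of the kinases Jak2 was higher by 0.27, while Jak1 (0.07) and Tyk2 (-0.36) did not pass. Stat3 was at 332, 157, 295 and 171 CPM against 181, 102, 182 and 120 CPM (log2 difference 0.71 ± 0.06), so that it was higher within each library although its Gfap-high levels in replicate 2 lay below the Gfap-negative levels in replicate 1. Socs3, the feedback inhibitor, was at 163, 164, 157 and 145 CPM against 50.5, 24.0, 35.3 and 24.0 CPM (log2 difference 2.24 ± 0.12, adjusted p = 1.3e-10).

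BMP receptors, their Smads and the Id genes followed the same direction, with exceptions among ligand and Smad genes. Of 15 members tested, 11 were higher, 2 lower and 2 did not pass (median log2 difference 0.61), beside 10.8% higher and 11% lower over all genes tested. The Id genes, which encode inhibitors of basic helix-loop-helix factors, were all higher: Id1 by 0.75, Id2 by 0.62, Id3 by 0.83 and Id4 by 1.25 on the log2 scale. Id4 was at 444, 425, 439 and 555 CPM against 213, 187, 196 and 189 CPM. The inhibitory Smads Smad6 and Smad7 were higher by 2.33 ± 0.12 and 0.86 ± 0.10, and Smad6 was at 47.3, 18.5, 46.7 and 34.9 CPM against 9.36, 2.91, 8.83 and 6.98 CPM. The receptor Bmpr1a was higher by 0.61 and the signal transducer Smad1 by 0.36. Bmp7, a ligand, was lower by 1.23 on the log2 scale and Smad5 by 0.43.

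Transmitter clearance genes went mostly down. Of 13 members tested 9 were lower and 3 higher (median log2 difference -0.34), where 11% of all genes tested were lower and 10.8% higher. Slc7a10, a transporter of serine and other small amino acids, was at 136, 83.6, 166 and 104 CPM against 297, 158, 316 and 215 CPM (log2 difference -0.998 ± 0.056). The gap junction gene Gjb6 was lower by 0.87 on the log2 scale and GLAST (Slc1a3) by 0.35. The glutamate transporter Slc1a2 was higher by 0.17, passed with 3 of 4 libraries in that direction, and did not pass in several alternatives, where the count of higher members was 0 (mitochondrial limit of 5%, replicate 1 alone). The broader list of 16 astrocyte genes split, with 8 higher (Clu by 1.24, Ntsr2 by 1.43), 4 lower (Cldn10 by 0.44, Fgfr3 by 0.41) and 4 not past the test (median log2 difference 0.13), beside the same 10.8% and 11% of all genes. With each cell thinned to 5000 UMIs before the states were set, 5 were higher and 5 lower, and the median was -0.06. Aqp4, part of the selection rule and therefore not tested, was at 1875, 2376, 1898 and 2784 CPM against 850, 1032, 843 and 1101 CPM.

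**Figure D3:**
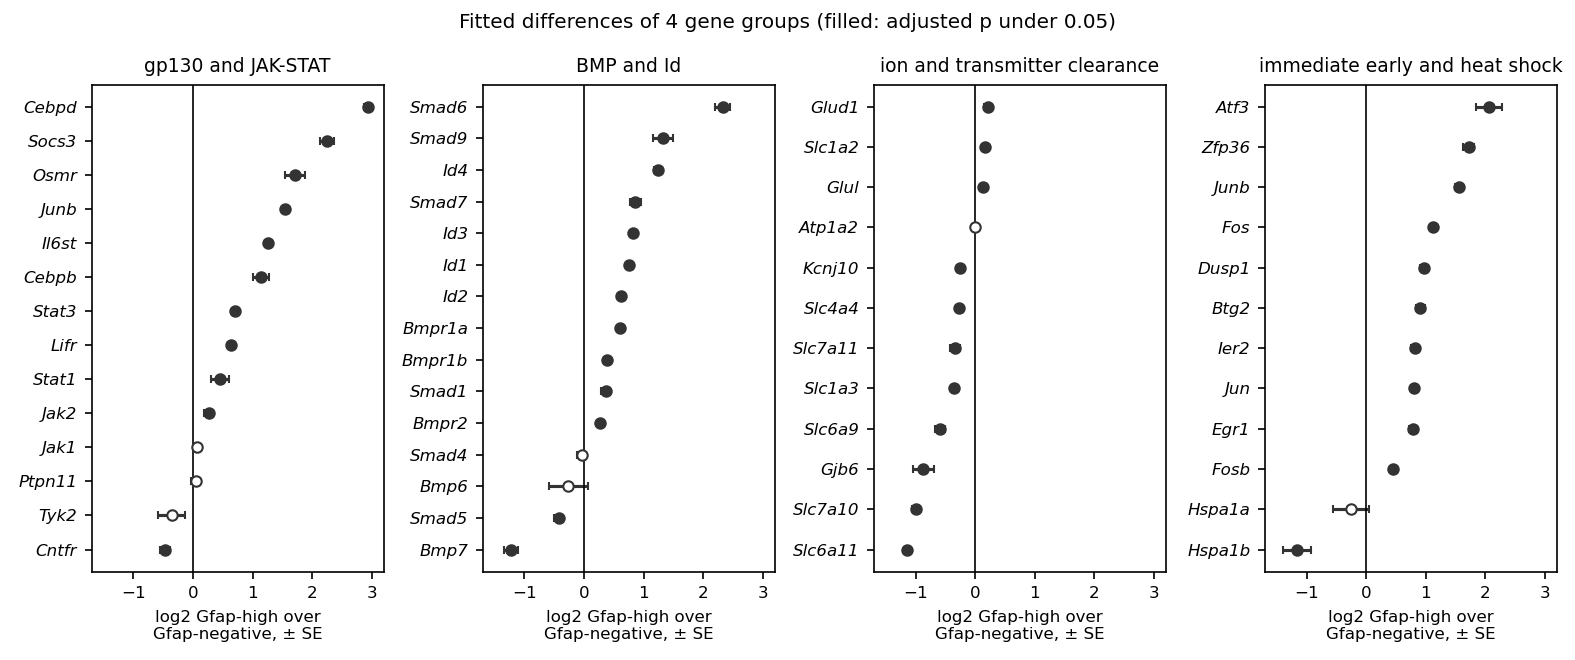
Fitted log2 differences between Gfap-high and Gfap-negative astrocytes (x axis) with their standard errors (bars) are shown for the tested genes of 4 lists (y axes, without 1 clearance gene that is not reported here), filled where the adjusted p was under 0.05. Of the filled points, 10 lie right of 0 for gp130 and JAK-STAT (Cebpd, which had served to name the cells, is 1 of them), 11 for BMP and Id, 3 for clearance and 10 for immediate early and heat shock genes.

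Immediate early genes, which neurons and glia switch on within minutes of stimulation or of tissue dissociation, were higher as well. Of 12 immediate early and heat shock genes 10 were higher, against 10.8% of all genes tested, and 1 was lower, against 11%. Fos was at 1736, 2122, 1675 and 1655 CPM against 833, 863, 812 and 800 CPM (log2 difference 1.13 ± 0.05), and Atf3 and Zfp36 were higher by 2.06 and 1.72. The heat shock gene Hspa1b was lower by 1.17 and Hspa1a (-0.26) did not pass. The median share of mitochondrial UMIs was also higher in Gfap-high cells of every library, at 3.71%, 6.79%, 4.06% and 6.33% against 3.14%, 6.09%, 3.16% and 5.05%. With cells limited to 5% mitochondrial UMIs the medians of both sets were 2.61%, 3.75%, 2.67% and 3.86% against 2.64%, 4.12%, 2.67% and 3.56%, and the same list still had 10 higher and 1 lower, with a median log2 difference of 1.10 in place of 0.86. The part of dissociation in these values was not tested.

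Filament, surface and regional genes gave a mixed picture beside Gfap, and their counts stand against 10.8% higher and 11% lower of all genes tested. Myoc, with its few Gfap-negative UMIs, is not counted here. With at least 10 counts in every sum, which left Myoc out, all 8 tested genes of white matter and surface astrocytes were higher. Among them were Igfbp5, at 343, 368, 334 and 419 CPM against 94.5, 114, 98.6 and 88.0 CPM, Cd44 (0.46 on the log2 scale in the main fit) and S100a6 (0.77). Of 6 filament genes 4 were higher: Vim, the vimentin partner of GFAP, by 0.80, Plec, a linker, by 1.41, and Lmna and Dst by 0.87 and 0.42. Nestin (Nes) was lower by 0.56. Among 13 tested stem cell and radial glia genes 6 were higher, such as Hopx and Pax6 (0.59), and 5 were lower, such as Ptprz1 (-0.93) and Egfr (-0.86). Of 10 telencephalic astrocyte genes 4 were higher, among them Fezf2 by 1.36, Emx1 by 1.09 and Lhx2 by 0.55, and 2 were lower, Mfge8 by 0.65 and Six3 by 0.47, the latter count being near the share of all genes. With each cell thinned to 5000 UMIs before the states were set, 1 of 9 tested genes of this list was higher and 2 were lower, so that its higher count is not a result about these genes. Of 6 tested genes listed for astrocytes outside the telencephalon, without Agt, none was higher and Slc6a11 and Slc6a9 were lower.

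Genes known from reactive astrocytes were partly higher. Of 24 tested, 13 were higher, 2 lower and 9 did not pass (median log2 difference 0.58), beside 10.8% and 11% of all genes tested. Serpina3n, a secreted protease inhibitor, was at 18.5, 47.2, 20.3 and 52.6 CPM against 4.68, 7.03, 2.29 and 5.16 CPM (log2 difference 2.65 ± 0.19), and Cd14, a receptor for bacterial lipids, and Ggta1, a glycosyltransferase, were higher by 2.71 and 2.08. Cxcl10, Timp1 and Serping1 did not pass (log2 differences 0.94, 0.39 and 0.87). Among 16 secreted serpins, inhibitors and matrix genes, without Agt and Serpinf1, 4 were higher, including Sparcl1 (0.67) and Timp2 (0.84), and 6 were lower, including Serpine2 (-0.42) and Gpc5 (-0.65). Mt1 and Mt2, metallothioneins that bind zinc and copper, were higher by 0.38 and 0.61, and Mt3 (0.05) did not pass. Of 10 tested Notch genes, Hes5 and Nrarp were lower by 0.54 and 0.72, Hey1, Hey2 and Notch2 higher by 0.74, 0.43 and 0.32, and 5 did not pass. With each cell thinned to 5000 UMIs before the states were set, 1 of 8 tested Notch genes was higher and 2 were lower. The higher count of this list is therefore not a result about these genes. Of 8 tested gliogenic factors Nfix, Sox9, Nfib and Zbtb20 were higher, by 0.44 at most, Dbx2 was lower by 0.22, and 3 did not pass. With the same thinning to 5000 UMIs, 2 of these 8 were higher and 1 was lower.

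Markers of other cells were low but not absent. Their counts past the test stand beside 10.8% higher and 11% lower of all genes tested. Summed over 8 microglia markers the Gfap-high cells held 55.4, 18.5, 29.4 and 21.0 CPM and the Gfap-negative cells 37.0, 20.6, 28.9 and 19.4 CPM. Tmem119 was at 0 in Gfap-high cells of all 4 libraries, and none of 3 tested microglia markers passed. The 8 neuron markers summed to 85.1, 87.5, 64.9 and 41.5 CPM against 78.1, 36.1, 80.5 and 33.4 CPM, and none of 5 tested passed. The 8 ependymal and choroid markers summed to 58.2, 123, 69.9 and 97.0 CPM against 51.5, 105, 69.3 and 57.9 CPM, with Rarres2 the most abundant and Kl at 0 in Gfap-high cells of all 4 libraries, and 1 of 5 tested (Dynlrb2) was higher. The 8 oligodendrocyte lineage markers summed to 255, 299, 275 and 432 CPM against 422, 427, 415 and 699 CPM, mostly Olig1. Olig1 and Olig2 were lower by 0.70 and 0.76. Of the 7 tested 1 was higher in edgeR and 0 in DESeq2. The 8 proliferation markers summed to 73.4, 75.9, 79.7 and 111 CPM against 91.9, 109, 88.6 and 122 CPM, mostly Pcna, and Cenpf was lower.

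Summed over the cells of a library, vascular and fibroblast markers were mostly lower in Gfap-high cells. Of 8 tested, 6 were lower, 1 (Rgs5, a pericyte gene, with 3 of 4 libraries in that direction) was higher and 1 did not pass, beside 11% lower and 10.8% higher of all genes tested. Of the 8, 3 had the same sign in all 4 libraries. The 11 markers summed to 94.3, 121, 131 and 97.0 CPM in Gfap-high cells and to 164, 187, 329 and 414 CPM in Gfap-negative cells, where Cldn5, an endothelial tight junction gene, was the most abundant in 3 of the libraries. Flt1, the VEGF receptor of endothelium, was at 0.734, 0.973, 0.211 and 2.21 CPM against 7.02, 17.7, 47.9 and 47.9 CPM. At least 3 UMIs of these markers were held by 62 of 332, 25 of 141, 51 of 293 and 34 of 178 Gfap-high cells. Among Gfap-negative cells it was 56 of 480, 23 of 329, 47 of 463 and 31 of 264, a smaller share in each library. Without all these cells 3 of the markers were tested and 1 was lower, with a median log2 difference of 0.42 in place of -2.12. Over all genes 2591 were then called. Of these, 2279 were among the 2746 calls made with all cells (83.0% of them, and 88.0% of the smaller set), 2275 of them with the same sign. The counts for gp130 and JAK-STAT did not move. For reactive astrocyte genes they went from 13 higher and 2 lower of 24 tested to 14 and 0 of 22. The median log2 difference of that list was 0.94 in place of 0.58.

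The share of Gfap-high cells among all resting astrocytes was then compared between genotypes. With each cell thinned to 5000 UMIs it was 21.5%, 16.9%, 19.7% and 25.9%, with 95% exact binomial intervals of 18.9 to 24.3, 14.0 to 20.01, 17.1 to 22.6 and 22.4 to 29.6 that cover counting error only. Thinning left out 844, 306, 783 and 566 shallower cells of all types. Control libraries averaged 19.2% ± 3.30 (SD, n = 2) and mutant libraries 22.8% ± 4.39 (n = 2), a difference of 3.64 percentage points. An exact two-sided permutation test over the 6 assignments of the libraries gave p = 0.667, and 0.333 is the smallest p this design allows. The mutant value was 1.80 percentage points below control in replicate 1 (a difference of -1.80) and 9.07 points above it in replicate 2. Without thinning the shares were 32.7%, 24.7%, 30.9% and 32.7%.

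**Figure D4:**
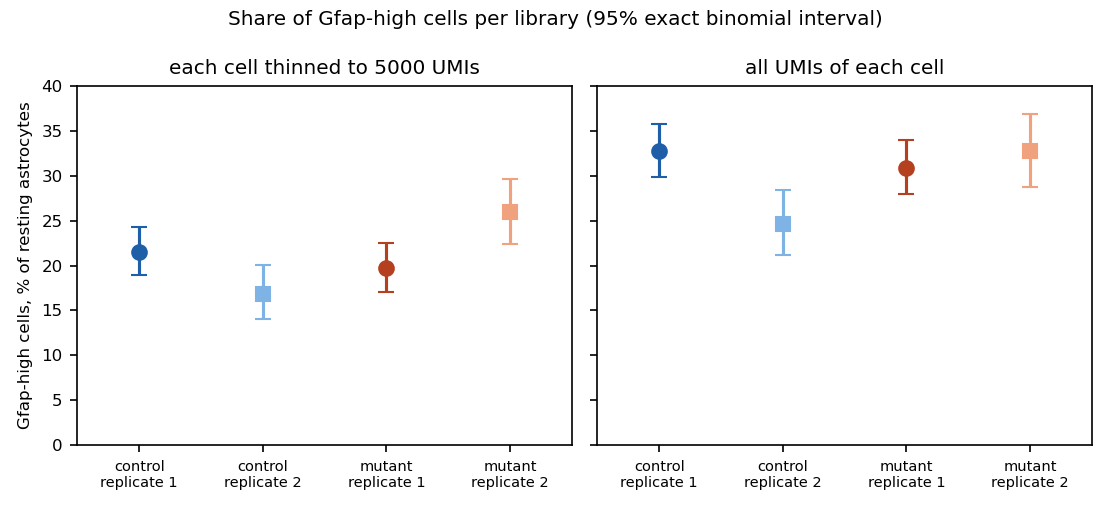
The share of Gfap-high cells among resting astrocytes, in percent (y axis, from 0), is given per library (x axis) after thinning to 5000 UMIs (left) and with all UMIs (right), with 95% exact binomial intervals as bars. The mutant point lies below the control point in replicate 1 and above it in replicate 2 on the left, and the genotypes overlap.

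Within Gfap-high astrocytes few genes passed a test between the genotypes. The targeted gene gave no check of the labels: Chd8 was at 49.2 and 87.0 CPM in control and at 52.6 and 72.4 CPM in mutant replicates 1 and 2. The kit counts the 3′ end of a transcript, outside the exons that Cre removes. Whether that bears on these levels was not tested. With edgeR's quasi-likelihood test 0 of 12474 genes passed an adjusted p under 0.05 (0% of those tested), and DESeq2 also called 0. An unadjusted edgeR p under 0.05 was held by 19 genes, fewer than no genotype difference would give, and by 402 with replicate as a block. Without the block, differences shared by the libraries of a replicate count as spread. The 0 therefore does not show that the genotypes were alike. With replicate as a block 1 gene passed (0.00802%), Calb2, the calcium binding protein calretinin, lower in mutant by 2.32 on the log2 scale (adjusted p = 0.00804). Its UMIs came from few cells: 47 of 56 in control replicate 1 lay in 2 cells and 55 of 58 in control replicate 2 in 1 cell. The 2, 1, 2 and 0 Gfap-high cells with 10 or more UMIs of Calb2, Neurod1, Bcas1 or Stmn2 were then left out. This cut was chosen after the data were seen. The fit without the block still called 0 genes and the blocked fit called 15 of 12428, 3 of them higher and 12 lower.

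Since none passed, 5 genes in each direction are given by their unadjusted p, with the same sign in both replicates. Slc6a9, the glycine transporter GLYT1, was at 29.9 and 36.0 CPM in control and at 53.2 and 61.0 CPM in mutant replicates 1 and 2 (log2 difference 0.81 ± 0.26, unadjusted p = 0.027 in edgeR). Tm7sf2, a sterol reductase, was at 44.8 and 40.8 against 65.7 and 72.4 CPM, and Dpm3, a subunit of the mannose donor synthase, at 108 and 101 against 171 and 149 CPM. Pnp and Gdf10 had log2 differences of 0.65 and 0.89. Thrsp, a lipogenic gene responsive to thyroid hormone, was at 61.5 and 91.9 CPM in control against 40.4 and 44.5 CPM in mutant (log2 difference -0.82 ± 0.30). The linker histone gene Hist1h1c was at 59.8 and 73.4 against 43.5 and 30.5 CPM. Stam2, Stmn2 and Hist1h1b had log2 differences of -0.63, -1.06 and -1.21. The values of the genotypes did not overlap in these genes, which were picked by small p and 1 sign in both replicates. That choice favours separation, so it is no result about them, and its share over all genes was not counted. Without the block no adjusted p was under 0.99. For Stmn2, however, 30 of the 47 UMIs of control replicate 2 lay in 1 cell, and its log2 difference ranged from -2.19 to -0.58 over the alternatives. With the replicate block the lowest adjusted p of the 10 was 0.23 (Slc6a9 and Thrsp). In the blocked edgeR fit without the cells rich in Calb2, Neurod1, Bcas1 or Stmn2, 4 of the 10 passed: Thrsp (adjusted p = 0.033), Slc6a9 (0.039), Hist1h1b (0.039) and Hist1h1c (0.042). That fit called 15 of 12428 genes. Its cut of cells was chosen after the data were seen, and the 10 genes were picked by p in these same data. The 4 are therefore a description only. Over the alternatives the log2 difference of Thrsp ranged from -1.07 to -0.074 (the last at a mitochondrial limit of 5%), that of Slc6a9 from 0.36 (cells thinned to 2000 UMIs) to 0.94, and that of Hist1h1b from -2.10 (without mutant replicate 1) to -0.70 (without mutant replicate 2). Gfap, Serpinf1, Agt and Cebpd had fitted log2 differences between genotypes of 0.25, 0.34, 0.57 and -0.15. The replicates differed: Serpinf1 was at -0.34 in replicate 1 and 0.67 in replicate 2, Agt at -0.04 and 0.93, Gfap at -0.0032 and 0.39, and Cebpd at -0.22 and -0.12. None of the 22 lists had a member past the test without the block.

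**Figure D5:**
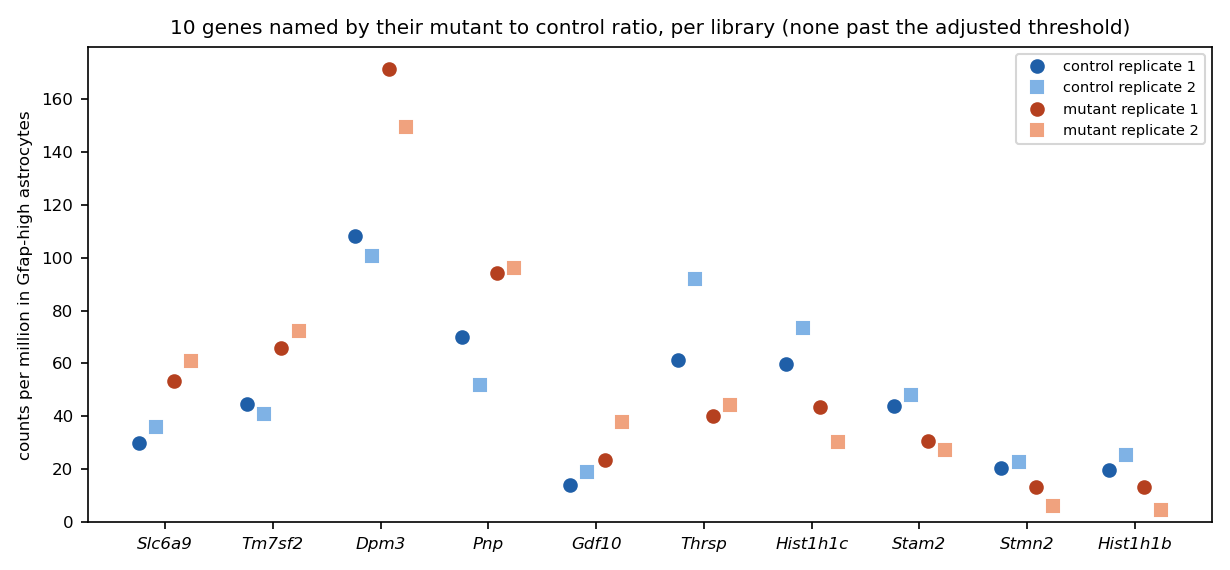
CPM in Gfap-high astrocytes (y axis, from 0) are shown for the 10 genes named by the genotype comparison (x axis), with a point per library. Both mutant points lie above both control points for the 5 genes on the left and below them for the 5 on the right, and none of the 10 passed the adjusted threshold without the block, while 4 passed in a blocked fit without 5 cells.

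Whether the Gfap-high to Gfap-negative difference depended on genotype was tested with an interaction term. Of 12630 genes 5 passed in edgeR (0.0396%), Tmsb10, Calb2, Neurod1, Sgcz and Bcas1, and DESeq2 called 0. More genes passed with replicate as a block, a count given below with the other alternatives. Tmsb10, an actin-binding peptide, was at 185 and 185 CPM in Gfap-high and 197 and 169 CPM in Gfap-negative control cells, and at 164 and 130 against 290 and 218 CPM in mutant cells. The difference between the states differed in sign between the 2 control libraries and was negative in both mutant libraries. Without the cells that held 10 or more UMIs of Calb2, Neurod1, Bcas1 or Stmn2, the interaction reversed for Calb2 (0.26 on the log2 scale) and for Bcas1 (-0.90).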

How the data were processed

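Single-cell counts of 4 libraries were used (2 control, 2 mutant; Chromium 3′ v3.1 kit, input of 5000 sorted cells). Raw UMI counts per gene and barcode, without normalization, are what the authors deposited; they came from Cell Ranger on mm10. The file headers name version 7.0.0 for replicate 1 and 5.0.1 for replicate 2, and the submitters' processing notes name Cell Ranger 3.0, so the versions disagree. The members and gene lists were chosen with earlier results of these data known. No doublet caller was run; the limit of 40000 UMIs and the genes required to be at 0 were the filters against mixed barcodes.

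Counts were summed per library and state and fitted with edgeR 4.0.16 (TMM, filterByExpr, glmQLFit, prior count 2, Benjamini-Hochberg over all genes tested, FDR 0.05); the library was a block between states, and genotype was fitted without a block. Scripts were tested on simulated data. DESeq2 1.42.0 and other filters, cell limits and single libraries left out were alternatives. Named genes were the 15 largest increases and 10 largest decreases past the threshold with 1 sign in 4 libraries and at least 50 CPM, leaving out mitochondrial, ribosomal and uncharacterised genes; for genotype, 5 in each direction of at least 20 CPM. Positions are from GENCODE vM21 (99.8% of gene IDs matched). Libraries are pools, so p-values measure the spread between libraries only. Some members of the lists are counted but not reported by name here.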

Additional observations from a re-analysis of the deposited data

Results flagged for a closer look

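For 5 genes the difference between Gfap-high and Gfap-negative astrocytes was not the same in control and mutant libraries by the interaction term (edgeR, adjusted p between 0.0291 and 0.0331). The interaction was -0.76 on the log2 scale for Tmsb10, -3.54 for Calb2, -4.22 for Neurod1, -2.10 for Sgcz and 2.69 for Bcas1. Without the cells that held 10 or more UMIs of Calb2, Neurod1, Bcas1 or Stmn2 it reversed for Calb2 (0.26) and Bcas1 (-0.90). In Neurod1, a neuronal transcription factor, 44 of 47 UMIs of control replicate 1 and 37 of 40 of control replicate 2 lay in 2 Gfap-high cells each, and mutant replicate 2 had 0. In Bcas1, a gene of young oligodendrocytes, 36 of 52 UMIs of Gfap-high cells of mutant replicate 1 lay in 1 cell, and 135 of 206 UMIs of Gfap-negative cells of control replicate 1 in 2 cells. Sgcz had 111 and 46 UMIs in Gfap-high cells of replicate 1 and 1 each in replicate 2. For Tmsb10 the top 2 Gfap-high cells held between 6.97% and 18.9% of the UMIs of a library, and the top 2 Gfap-negative cells between 13.5% and 23.6%.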

How the results depend on the processing

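Between Gfap-high and Gfap-negative astrocytes the count of calls was 2746, and it was 192 without the library block (no replicate block), 1283 with DESeq2, 1531 at a mitochondrial limit of 5%, 1824 with cells thinned to 5000 UMIs and 1209 in replicate 2 alone; leaving out 1 library gave 1896 to 2263. All calls of the unblocked fit and of DESeq2 were among the 2746, with the same sign. Of the 23 named genes other than Serpinf1 and Cebpd, 14 passed without the block and 22 against UMI-matched cells. With at least 10 counts in every sum Myoc and Cidea were not tested and the other 21 passed; all 23 passed in each other alternative. Between genotypes the count of 0 became 1 with the replicate block, 5 without a filter on low counts, and 15 with the block and without the cells rich in Calb2, Neurod1, Bcas1 or Stmn2, an alternative chosen after seeing the data, as were single replicates and the vascular cut. The replicate numbers were not labelled as pairs: deviations of replicates from their group correlated across genes between genotypes (r = 0.815), and genotype differences of replicates 1 and 2 did not (rho = -0.02). Chd8 between genotypes (-0.09 on the log2 scale) was reversed at 0.066 (5% mitochondrial limit), 0.36 (without control replicate 2) and 0.10 (without mutant replicate 1), within -0.45 to 0.36 over the libraries left out. The interaction count of 5 became 74 with the replicate block, 0 with DESeq2 (77 at an unadjusted p under 0.05), 52 without a filter, 16 without TMM, 12 with matched cells and 8 without the cells rich in Calb2 and the like, where Bcas1 (-0.90) and Calb2 (0.26) reversed; leaving out 1 library gave 10 to 46. The difference in the share of Gfap-high cells was 0.54 to 6.74 percentage points with 1 library left out, and 3.64 with permutation within the replicate block, which changes only the p (1). Over all cells that passed the filters it was 0.53 points, and 0.023 without thinning. Replicate 1 was negative in each setting that gave values within replicates. The causes were not tested. Leaving out cells with any UMI of another cell type left 3 to 8 members per library and could not be fitted. Depth limits genes of few UMIs per library, and 2 libraries per genotype limit every genotype comparison.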

Other observations

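A group that no list had named, and that was picked after its values were seen, was MHC class II, the complex that presents peptides to helper T cells and is best known from macrophages and other professional presenting cells. Besides H2-Ab1, the partner chain H2-Aa was at 27.9, 24.3, 24.7 and 61.4 CPM in Gfap-high cells of control replicates 1 and 2 and mutant replicates 1 and 2, against 0.293, 3.15, 0.491 and 3.94 CPM in Gfap-negative cells. H2-Eb1 was at 32.7, 26.3, 20.3 and 57.0 CPM against 0.293, 2.67, 0.491 and 6.37 CPM. Cd74, the invariant chain, was at 30.1, 47.2, 31.9 and 105 CPM against 0.293, 0.97, 0.164 and 6.67 CPM. In each of these genes the Gfap-high values lay above all Gfap-negative values.

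The UMIs came from a minority of cells. At least 3 UMIs of the 4 genes together were found in 42 of 332, 16 of 141, 31 of 293 and 39 of 178 Gfap-high cells and in 0 of 480, 5 of 329, 1 of 463 and 6 of 264 Gfap-negative cells. Of those Gfap-high cells 3, 0, 4 and 2 held any UMI of the microglia and macrophage genes C1qa, C1qb, C1qc, Cx3cr1 and Csf1r. Among all Gfap-high cells it was 28 of 332, 1 of 141, 27 of 293 and 5 of 178, and the 28 cells of control replicate 1 held 148 such UMIs. The source of the MHC class II UMIs was not tested. The Gfap-high cells with at least 3 MHC class II UMIs had a median Gfap count of 22, 11.5, 23 and 24 UMIs, against 9, 8, 7 and 12 in all Gfap-high cells. Irf1, an interferon-induced transcription factor, was higher in Gfap-high cells by 1.67 ± 0.14 on the log2 scale (edgeR, adjusted p = 3.4e-08), while of the class I genes H2-D1 was higher by 0.41 (adjusted p = 0.012), H2-K1 was lower by 0.39, and B2m, the light chain, did not pass (0.16).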
